A study of Mus musculus with 8 samples.

Results

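Desmosomes are spot-like junctions that anchor the keratin filaments of neighbouring epithelial cells to each other. Desmosomal cadherins (desmogleins and desmocollins) bind across the gap, plakoglobin (Jup) and plakophilins (Pkp1, Pkp2, Pkp3) bind their tails on the inner side, and desmoplakin (Dsp) ties these armadillo proteins to keratin. Perp, a tetraspan membrane protein found first as a target of p53 and also known as a target of p63, is a constituent of desmosomes in stratified epithelia. These 8 genes, Dsp, Jup, Pkp1, Pkp2, Pkp3, Dsg2, Dsc2 and Perp, were taken by symbol through their Entrez identifiers from the 27179 rows of the count table, and all 8 had a row. Perp was chosen by its measured counts in these libraries, as a switch-like gene that was read in 4T1 and 4T1.2 cells and absent from the reads of 66cl4 and 67NR, so that contrast is described for Perp and not tested. The 7 desmosome genes were named by family, with earlier results of these data known.

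RNA-seq counts came from 8 libraries of 4 related mouse mammary tumour lines grown in culture without treatment, with 2 biological replicates of each. The lines were 4T1.2, 4T1, 66cl4 (spelled 66c14 in the sample labels) and 67NR. The study compared 4T1 and 4T1.2 with 66cl4 and 67NR, which have a lower metastatic potential. 4T1.2 is a clone grown out of 4T1, so these are not independent tumours, and each line stands for itself alone. All were kept in alpha-MEM with fetal calf serum, and the labels give no genotype or added agent. Library totals ran from 37159840 to 66269681 counts. Levels are given as CPM (counts scaled to 1e+06 of the TMM effective library size) and, between genes, as RPKM (CPM per kilobase of gene length). A call means an adjusted p under 0.05 in edgeR's quasi-likelihood test over the 13913 genes tested.

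Epithelial markers were unevenly present. Of 9 listed, 8 were tested and all 8 were higher in 4T1/4T1.2 cells, while 7 of 8 mesenchymal markers were lower and Vim was higher. Over all genes tested, 38.1% were called higher and 38.6% lower. Epcam, Cdh1, Krt19, Cldn3, Cldn4 and Cldn7 passed the filter on low counts only through 4T1 and 4T1.2. Cdh2 and Col1a2 passed it only through 66cl4 and 67NR. These counts of calls are thus no measure of how the marker lists behaved. Krt8, a keratin of simple epithelia, was read in every library, while Epcam, an epithelial adhesion protein, had 778 to 2378 counts per library of 4T1 and 4T1.2 but 0 or 1 elsewhere. Esrp1, an epithelial splicing factor, had at most 1 count in any library, and Vim, a mesenchymal filament protein, was at 1948 CPM in 67NR and 5829 in 4T1 as the lowest and highest mean of a line. The 8 leucocyte markers summed to between 1.90 and 5.81 CPM and the 4 endothelial markers to between 0.292 and 3.65 CPM, with Cd3e and Adgre1 at 0 throughout. In the pooled comparison, 3 leucocyte markers could be tested (2 higher in 4T1/4T1.2 cells, 1 lower) and 2 endothelial markers (both higher). The summed endothelial level was highest in 4T1, at 2.20 to 3.65 CPM, and Cd68, a macrophage-rich lysosomal protein, was higher in 4T1/4T1.2 cells (log2 fold change 0.97, adjusted p = 3.72e-05, edgeR). The part of other cells in the results was not tested.

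The defining adhesion receptors of the desmosome were not detectable at this depth. Dsg2 (chromosome 18, 20558074 to 20604526, GRCm38), the desmoglein of simple epithelia, had 1 count in 4T1.2 replicate 2 and 0 in the other 7 libraries. Dsc2 (chromosome 18, 20030633 to 20059554), the matching desmocollin, had 1 count in 66cl4 replicate 2 and 0 elsewhere. A count of 0 allows up to 3 counts, or 0.0486 to 0.0819 CPM depending on the library. The other 7 desmosomal cadherins lie in the same cluster on chromosome 18 and were as low. Dsg1a, Dsg1b, Dsg3, Dsg4 and Dsc1 had 0 counts in all 8 libraries, Dsg1c had 1 and 3 counts in 4T1.2 with 0 elsewhere and Dsc3 had 2 counts in 4T1 replicate 1. Together the 9 cadherin genes took 8 of 439990389 counts. Neither Dsg2 nor Dsc2 passed the filter on low counts, so neither was tested. The label desmosome genes thus holds here for cytoplasmic plaque genes and Perp, and not for the cadherins. Of these, only Jup, Pkp2 and Pkp3 had more than 3 counts in every library.

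**Figure D1:**
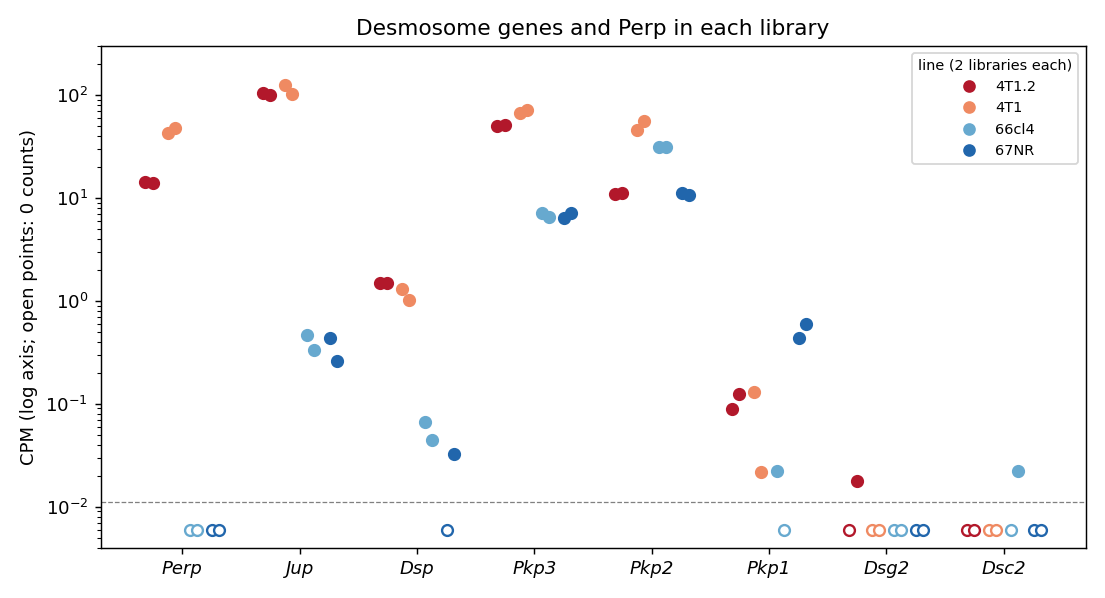
CPM of each of the 8 genes in each library, on a log axis, with 1 point per library coloured by line and open points below the dashed line for libraries with 0 counts. Perp, Jup, Dsp and Pkp3 stand higher in the 4T1 and 4T1.2 libraries than in all others, Pkp2 crosses the groups, and Dsg2 and Dsc2 have a single point above 0 each.

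Perp (Entrez gene 64058, chromosome 10, 18845071 to 18857073, GRCm38) gave 2599 and 2204 counts for the replicates of 4T1, with 820 and 793 in those of 4T1.2. It had 0 counts in both libraries of 66cl4 and both of 67NR. These are levels of 14.2 ± 0.319 CPM in 4T1.2 and 45.1 ± 3.53 CPM in 4T1 (SD, n = 2). The groups did not overlap, as the choice of the gene implies. With 3 counts taken as the floor in each library of the lower group, the level of Perp averaged over 4T1 and 4T1.2 was at least 450-fold higher. By line, this bound was 216-fold for 4T1.2 and 683-fold for 4T1. In bulk RNA, fewer cells that express a gene and less RNA per cell cannot be told apart. No 75-base stretch of its transcript is shared with a transcript of a different gene, and no exon of another gene overlaps it.

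Within the pair of lines that express it, Perp differed. Its level in 4T1.2 lay below that in 4T1, at -1.66 on the log2 scale (standard error, SE, 0.12, adjusted p = 0.000106 by edgeR), a comparison that was not used to choose it. In this comparison 19.3% of all genes tested were called, and 9.9% were lower in 4T1.2. Of the 8 members, 3 were called, all lower in 4T1.2. They were Perp, Pkp2 and Pkp3, the last by a smaller margin.

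The annotated genes around Perp on chromosome 10 were read as follows. Before it, 4930444F02Rik and Gm4922 had 0 counts in all libraries, and Arfgef3, 101.0 kb away, was at 2.16 ± 0.472 CPM in 66cl4 and at most 0.171 CPM on average in any other line (SD, n = 2). After it, Tnfaip3, an inhibitor of NF-kappaB signalling 144.0 kb away, was read in every line, from 40.0 ± 0.593 CPM in 67NR to 91.5 ± 13.6 CPM in 4T1. Its pooled log2 fold change was 0.77 (adjusted p = 8.94e-05, edgeR), where 38.1% of all genes tested were called higher in 4T1/4T1.2 cells. That of Arfgef3 was -4.1 (adjusted p = 2.4e-05, edgeR). Arfgef3 passed the filter on low counts only through 66cl4, so its call is no support of its own. Beyond it, Gm20139 and Olig3 had at most 20 counts in a library. None of the 6 was at 0 in 66cl4 and 67NR and read in 4T1 and 4T1.2.

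Jup (Entrez gene 16480, chromosome 11, 100368856 to 100397839) encodes plakoglobin, which sits in both desmosomes and adherens junctions. Its counts were 7594 and 4789 in 4T1, 5941 and 5636 in 4T1.2, then only 21 and 15 in 66cl4, with 16 in each 67NR library. Every library of 4T1 and 4T1.2 stood above every other library. The means were 114 ± 14.9 CPM in 4T1 and 102 ± 3.68 in 4T1.2, while 67NR stood at 0.348 ± 0.125 and 66cl4 at 0.400 ± 0.0914 (SD, n = 2). Taken over both pairs of lines, 4T1/4T1.2 exceeded 66cl4/67NR by 8.21 on the log2 scale (SE 0.14, adjusted p = 2.92e-11, edgeR). Unlike Perp, Jup kept a low count in all libraries of the lower group. No difference was called between 4T1.2 and 4T1 (-0.16, SE 0.12, adjusted p = 0.435, edgeR), nor between 66cl4 and 67NR (0.28, SE 0.34, adjusted p = 0.537, edgeR).

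In this pooled comparison 76.7% of all genes tested were called, 38.1% as higher in 4T1/4T1.2 cells. Of the 7 desmosome genes, 4 of 5 tested were called, a share near that background, and all 4 were higher. Pkp1 was not called, and Dsg2 and Dsc2 were not tested. Dsp passed the filter only through the 4T1 and 4T1.2 libraries and Pkp1 only through those of 67NR, so the counts of calls, here and between single lines, are not a measure of how the group behaved. In 55.5% of all genes tested the 4 libraries of 4T1 and 4T1.2 did not overlap the other 4, and this held for Jup, Dsp and Pkp3.

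Dsp (Entrez gene 109620, chromosome 13, 38151294 to 38198577) encodes desmoplakin, the link to keratin, and its RNA was low everywhere. Its counts were 80 and 47 for 4T1, 84 and 85 in 4T1.2, then 3 and 2 in 66cl4, with 0 and 2 in 67NR. The levels were 1.49 ± 0.0143 CPM in 4T1.2 and 1.16 ± 0.210 CPM in 4T1 (SD, n = 2). Summed over libraries, 296 counts stood against 7, a ratio of 36.1 after scaling for library size (exact 95% binomial interval 17.3 to 90.5, which covers counting error only). Since Dsp passed the filter only through 4T1 and 4T1.2, the group where it is high, its call in the comparisons with 66cl4 and 67NR is given with the counts and is no support of its own. Between 4T1.2 and 4T1 no difference was called, at 0.35 (SE 0.24, adjusted p = 0.382, edgeR). Gm10129 shares 4.4% of the 75-base stretches of Dsp and is an antisense gene that overlaps its exons.

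Per length, the plaque was read in very unequal parts. In 4T1.2, Jup was at 20.4 RPKM, Pkp3 at 16.6, Pkp2 at 3.82 and Dsp at 0.155. Jup exceeded Dsp in RPKM by 135 and 127 times in the 4T1.2 libraries and by 182 and 195 times in the 4T1 libraries. Jup and Pkp3 stood close to each other there, with a ratio of Jup to Pkp3 in RPKM of 1.27 and 1.19 in 4T1.2 and of 1.14 and 0.876 in 4T1. In the libraries of 66cl4 and 67NR that ratio was 0.0223 to 0.0412. Against its close relative beta-catenin (Ctnnb1), which serves adherens junctions and Wnt signalling, Jup made up 5.39% to 6.35% of the summed RPKM of both genes in 4T1 and 4T1.2, but at most 0.0444% elsewhere.

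Promoter entries were matched for 2 of the 8 members, Dsp and Jup, and are shown because both genes were higher in the same lines. They come from RefSeq on GRCm38.p6, run from 250 bases before the start used by the entry to 50 after it, and are written 5′ to 3′. For Jup this start lies inside the gene span given above and not at its outer end. Dsp lies at chr13:38151044-38151343 on the plus strand and Jup at chr11:100397741-100398040 on the minus strand. Capitals mark the E-box CAGGTG or its reverse CACCTG, a motif that Snail and Zeb repressors can bind, and the GC box GGGCGG or its reverse CCGCCC.
Dsp: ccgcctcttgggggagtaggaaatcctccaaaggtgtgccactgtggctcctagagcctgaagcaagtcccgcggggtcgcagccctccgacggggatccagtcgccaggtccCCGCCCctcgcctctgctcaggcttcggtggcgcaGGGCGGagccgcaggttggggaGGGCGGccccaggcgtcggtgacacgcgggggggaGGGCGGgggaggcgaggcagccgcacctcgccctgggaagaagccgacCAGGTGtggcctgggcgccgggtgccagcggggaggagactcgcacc
Jup: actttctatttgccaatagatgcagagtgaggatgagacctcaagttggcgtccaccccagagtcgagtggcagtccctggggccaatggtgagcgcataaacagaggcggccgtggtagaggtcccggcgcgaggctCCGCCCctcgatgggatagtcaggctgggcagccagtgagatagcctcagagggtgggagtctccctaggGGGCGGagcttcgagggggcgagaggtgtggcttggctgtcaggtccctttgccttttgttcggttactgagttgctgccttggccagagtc
The Dsp promoter held 1 E-box, 3 bases after the start, and 4 GC boxes, and the Jup promoter held 2 GC boxes and no E-box of this spelling. On either strand, 20.2% of the 32851 promoters of this length held that E-box and 35.7% held a GC box. The Dsp stretch was 73.0% G or C with 27 CG pairs, and that of Jup was 60.7% with 14, against medians of 52.7% and 7 over all promoters. A match describes the letters only.

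The plakophilins, armadillo proteins that cluster desmosomal cadherins, each had an order of lines of its own. Pkp3 (chromosome 7, 141078229 to 141090511) had 4047 and 3322 counts in 4T1, 2841 and 2886 in 4T1.2, then 321 and 292 in 66cl4, with 236 and 437 in 67NR. This gave 69.0 ± 3.82 CPM in 4T1 and 50.5 ± 0.625 in 4T1.2 against 6.81 ± 0.407 and 6.76 ± 0.454 CPM in 66cl4 and 67NR (SD, n = 2). The groups were apart, with a log2 fold change of 3.12 (SE 0.08, adjusted p = 1.97e-10, edgeR). Between 66cl4 and 67NR no difference was called (0.00, SE 0.11, adjusted p = 0.984, edgeR). Pkp3 in 4T1.2 differed from that in 4T1 by -0.45 on the log2 scale (SE 0.09, adjusted p = 0.0093, edgeR), and this call was lost when either 4T1.2 library was left out (adjusted p = 0.0756 without replicate 1 and 0.0573 without replicate 2, edgeR).

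Pkp2 (chromosome 16, 16213345 to 16272712), the plakophilin of simple epithelia and heart, did not split the lines into the same groups. Its counts were 2811 and 2573 for 4T1, 1429 and 1416 in 66cl4, 626 in each 4T1.2 library, with 408 and 664 in 67NR. The order of levels was 50.8 ± 6.70 CPM in 4T1, 31.6 ± 0.0200 in 66cl4, 11.04 ± 0.0139 in 4T1.2 and 10.95 ± 0.264 in 67NR (SD, n = 2). 4T1 stood above 66cl4 by 0.68 on the log2 scale (SE 0.11, adjusted p = 0.000302, edgeR). 66cl4 stood in turn above 4T1.2, with 4T1.2 over 66cl4 at -1.52 on the log2 scale (SE 0.11, adjusted p = 1.39e-06, edgeR). The last neighbours, 4T1.2 and 67NR, were not called apart (0.01, SE 0.11, adjusted p = 0.93, edgeR). The pooled log2 fold change was 0.35 (SE 0.08, adjusted p = 0.00244, edgeR), a mean over lines that moved in opposite directions, since 4T1.2 lay below 66cl4.

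Within the pairs, Pkp2 gave the largest change of any member with more than 3 counts in every library. It fell in 4T1.2 relative to 4T1, with a log2 fold change of -2.20 (SE 0.11, adjusted p = 5.23e-06, edgeR), and was higher in 66cl4 than in 67NR, by 1.53 (SE 0.11, adjusted p = 6.77e-06, edgeR). Between 66cl4 and 67NR 44.6% of all genes tested were called, 22.3% as higher in 66cl4 and 22.4% as lower. Among the members Pkp2 and Pkp1 were called there, and Perp and Dsp, with at most 3 counts in each of these libraries, are given no fold.

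Pkp1 (chromosome 1, 135871394 to 135919207), the plakophilin of stratified epithelia, was near the limit of detection and highest in 67NR. Its counts were 8 and 1 for 4T1, 5 and 7 in 4T1.2, then 1 and 0 in 66cl4, with 16 and 37 in 67NR. Its level was 0.518 ± 0.115 CPM in 67NR and at most 0.106 CPM on average in the other lines (SD, n = 2). The 53 counts of 67NR against 1 of 66cl4 made a ratio of 48.5 (exact 95% binomial interval 8.34 to 1950), with 12 counts in 4T1.2 and 9 in 4T1. Pkp1 passed the filter only through 67NR, the line where it is high, so its calls against that line (made for all 3 other lines) are no support of their own. The pooled comparison made no call (0.18, SE 0.54, adjusted p = 0.777, edgeR). The call of 4T1.2 over 66cl4 rests on 12 counts against 1 and had adjusted p-values from 0.0221 to 0.195 over the alternatives.

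**Figure D2:**
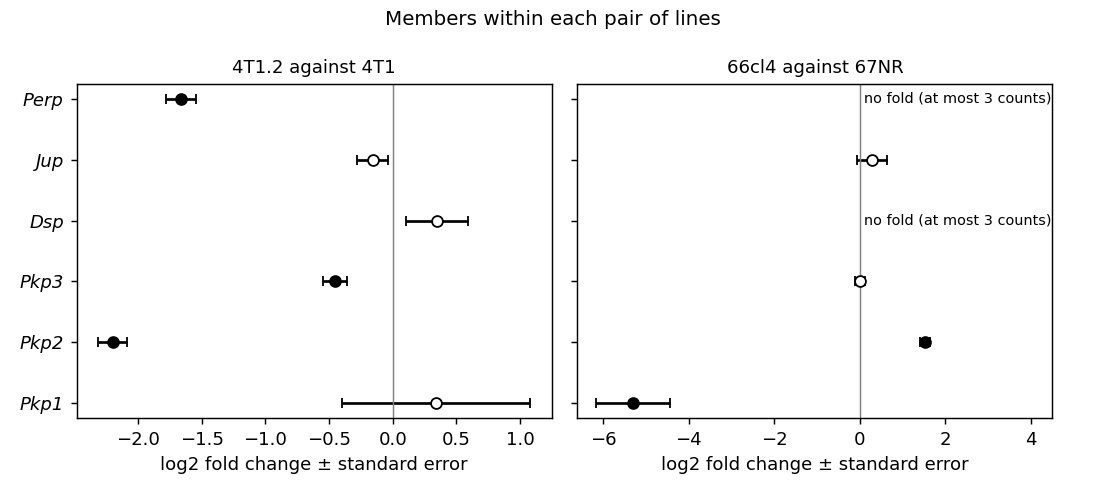
Log2 fold change of each tested member between 4T1.2 and 4T1 (left) and between 66cl4 and 67NR (right), with bars for the SE and filled points for an adjusted p under 0.05. Perp, Pkp2 and Pkp3 lie below 0 on the left, and Pkp2 and Pkp1 lie on opposite sides of 0 on the right.

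The make-up of the plakophilin RNA differed by line. Of the summed RPKM of Pkp1, Pkp2 and Pkp3, Pkp3 made up 57.7% and 55.1% in the 4T1 libraries, but 81.1% and 81.3% in 4T1.2. In 66cl4 it made up 17.6% and 16.4%, and Pkp2 held 82.4% and 83.6%. In 67NR, Pkp2 held 63.5% and 60.2%, Pkp3 held 34.9% and 37.6%, and Pkp1 reached 1.61% and 2.16%. Thus Pkp3 led in the libraries of 4T1.2 and 4T1 and Pkp2 in those of 66cl4 and 67NR. Pkp4, a relative found mainly at adherens junctions, stayed between 20.9 and 26.6 RPKM as the mean of a line.

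**Figure D3:**
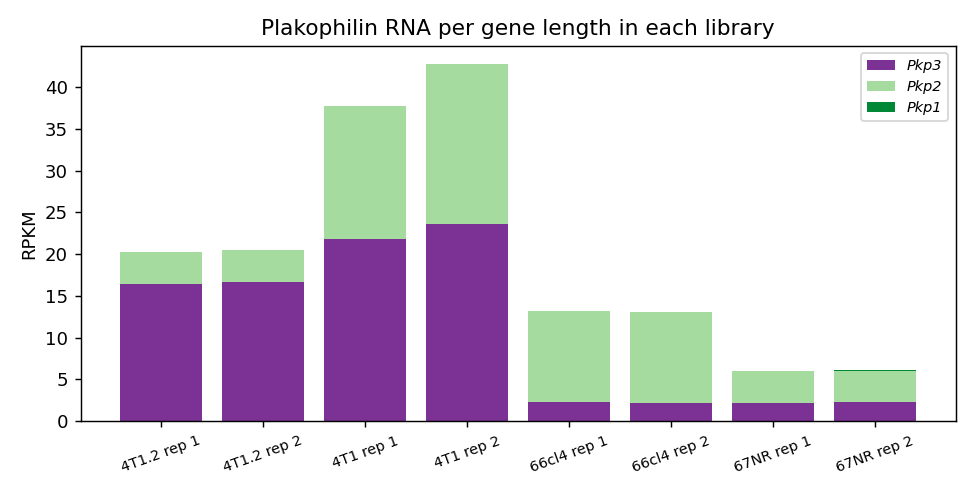
RPKM of Pkp3, Pkp2 and Pkp1 stacked for each library. The 4T1 libraries have the highest stacks, Pkp3 forms most of the stack in 4T1.2 and Pkp2 most of it in 66cl4, and Pkp1 is visible only as a thin band in 67NR.

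Between single lines, the 7 desmosome genes gave 5 calls for 4T1.2 against 66cl4, where 68.8% of all genes tested were called, and 4 calls for 4T1.2 against 67NR, where 67.8% were. For 4T1 they gave 4 calls against 66cl4 (70% of all genes) and 5 against 67NR (68.2%). With 5 genes tested, 4 or 5 calls lie near these background shares. Jup and Pkp3, which passed the filter in all lines, were called as higher in each of these comparisons, which share libraries with each other.

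Other proteins of the desmosome and its filaments were read as follows, over lists written with earlier results known. Of 12 other desmosomal genes, 5 could be tested in the pooled comparison, where 76.7% of all genes tested were called. Ppl, Evpl and Cdsn were higher in 4T1/4T1.2 cells. Kazn and Pkp4 were lower as a mean over lines, but their libraries overlapped between the groups. Kazn was at 4.88 ± 0.257 CPM in 67NR and 0.933 ± 0.00662 in 66cl4, below the 1.34 ± 0.583 of 4T1 and above the 0.617 ± 0.174 of 4T1.2 (SD, n = 2), and neither 4T1 nor 4T1.2 was called apart from 66cl4 (adjusted p = 0.145 and 0.153, edgeR). Ppl (periplakin, a plakin linked to the cornified envelope) was at 57.8 ± 3.92 CPM in 4T1, 66.3 ± 7.67 in 4T1.2, 29.3 ± 0.153 in 66cl4, but 0.139 ± 0.0356 in 67NR (SD, n = 2). Its log2 fold change of 66cl4 over 67NR was 7.76 (SE 0.20, adjusted p = 2.19e-08, edgeR), so this plakin parted 67NR from the other lines. Evpl (envoplakin, its partner) was at 7.07 ± 0.632, 2.99 ± 0.433, 1.74 ± 0.160 and 1.15 ± 0.0762 CPM in the same order of lines. Pkp4 changed least, with a pooled log2 fold change of -0.17 (SE 0.07, adjusted p = 0.0433, edgeR).

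Of the 9 keratins, the filaments that desmoplakin binds, 6 were tested and all 6 were higher in 4T1/4T1.2 cells. Over all genes tested, 38.1% were called higher. The median log2 fold change of the keratins was 5.23 against -0.013 over all genes. Krt14, Krt17 and Krt19 passed the filter only through 4T1 and 4T1.2, so this count and median are no measure of how the keratins behaved as a group. Krt7, a keratin of simple epithelia, was at 498 ± 71.7 CPM in 4T1 and 393 ± 38.6 in 4T1.2, while 67NR stood at 0.991 ± 0.0889 and 66cl4 at 2.51 ± 0.0806 (SD, n = 2). Its log2 fold change was 8.12 (SE 0.12, adjusted p = 1.5e-11, edgeR). Krt17, a basal and wound keratin, had 466 counts against 3, a ratio of 133 (exact 95% binomial interval 45.1 to 645).

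Among the 8 adherens junction genes, 7 were tested, 2 were higher, 3 were lower and 2 were not called. The share called lies near the 76.7% over all genes tested. Cdh1 and Cdh2 passed the filter on low counts only through the lines where each is high, so this share does not measure the list. The higher genes were Cdh1 (E-cadherin) and Ctnnb1. Cdh1 was at 38.5 ± 0.577 CPM in 4T1 and 11.4 ± 0.385 in 4T1.2, while 67NR stood at 0.0759 ± 0.0302 and 66cl4 at 0.0997 ± 0.0778 (SD, n = 2). Cdh2 (N-cadherin), Afdn and Vcl were lower. For Vcl (vinculin) the groups overlapped and the lower mean came from 66cl4, since 4T1.2 stood above 67NR by 0.37 on the log2 scale (adjusted p = 0.00408, edgeR). Cdh2 had 2 counts in the 4T1 and 4T1.2 libraries together against 16556 in the others, a ratio of 9700 in favour of 66cl4/67NR (exact 95% binomial interval 2690 to 80100). Each pair of lines thus read a classical cadherin while none read a desmosomal cadherin above 3 counts.

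Known regulators of epithelial junctions moved in both directions. Of 10 epithelial transcription factors, 8 were tested, with 3 higher, 3 lower and 2 not called. These counts lie near the shares over all genes tested, 38.1% called higher and 38.6% lower. Some factors passed the filter on low counts only through the group where they are high, so these counts do not measure the list. Of the 3 higher, the libraries of Klf5 overlapped between the groups. Elf3, an epithelial Ets factor, was higher by 4.81 on the log2 scale (SE 0.14, adjusted p = 6.94e-10, edgeR). Trp63, which encodes p63, the master regulator of stratified epithelia, was lower in 4T1/4T1.2 cells, and a link to Perp was not tested. It was at 137 ± 0.189 CPM in 66cl4 and 32.3 ± 3.30 CPM in 67NR, where Perp had 0 counts, and at 0.147 ± 0.0243 CPM in 4T1 and 0.317 ± 0.0994 in 4T1.2 (SD, n = 2). Its log2 fold change was -8.24 (SE 0.13, adjusted p = 2.07e-11, edgeR). Grhl1, a grainyhead factor, had a log2 fold change of -4.69 (SE 0.28, adjusted p = 1.51e-07, edgeR). It passed the filter only through 66cl4 and 67NR, so its call is no support of its own.

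All 5 repressors of epithelial genes were tested in the pooled comparison, where 76.7% of all genes tested were called. Snai2, Zeb1 and Twist1 were lower in 4T1/4T1.2 cells, Snai1 was higher and Zeb2 was not called. Snai2 passed the filter on low counts only through 66cl4 and 67NR, and Snai1 only through 4T1 and 4T1.2. The calls of Snai2 and Snai1 are thus no support of their own. Zeb1 was at 0.456 ± 0.00388 CPM in 4T1 and 0.317 ± 0.0752 in 4T1.2, while 67NR stood at 64.2 ± 1.54 and 66cl4 at 62.6 ± 3.61 (SD, n = 2). Snai2 had 5 counts against 15935, a ratio of 3740 in favour of 66cl4/67NR (exact 95% binomial interval 1600 to 11500). Snai1 ran against them, with 3814 counts in 4T1 and 4T1.2 against 3 elsewhere, a ratio of 1080 (exact 95% binomial interval 371 to 5260).

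All 5 relatives of Perp in the PMP22 and EMP family were lower in 4T1/4T1.2 cells, while 38.6% of all genes tested were called lower. Perp was chosen for its higher level in these cells, and a link between it and this family was not tested. Tmem47, a junctional protein of this family, had 1, 4, 0 and 5 counts in the 4T1.2 and 4T1 libraries and was at 60.8 ± 1.97 and 50.3 ± 3.21 CPM in 66cl4 and 67NR (SD, n = 2). Its log2 fold change was -10.17 (SE 0.25, adjusted p = 2.05e-10, edgeR). Tmem47 passed the filter on low counts only through 66cl4 and 67NR, so its call, also within the 5 above, is no support of its own. Of the summed RPKM of Perp and Tmem47, Perp made up at least 99.8% in every library of 4T1 and 4T1.2 but 0% elsewhere. The other 4, Pmp22, Emp1, Emp2 and Emp3, were read in all libraries, with log2 fold changes from -1.08 for Emp2 to -0.31 for Emp1. The libraries of Emp1 overlapped between the groups, and neither 4T1 nor 4T1.2 was called apart from 67NR (adjusted p = 0.231 and 0.561, edgeR).

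Genes of the p53 pathway, of which Perp is a known target, are given as a description. The direction of Perp here follows from its choice, and a link to Perp was not tested. Of 14 listed, 13 were tested and all 13 were lower in 4T1/4T1.2 cells, with a median log2 fold change of -2.29. Over all genes tested, 38.6% were called lower. Cdkn1a, the p21 cell cycle inhibitor, was at 30.2 ± 1.17 CPM in 4T1 and 21.3 ± 0.0267 in 4T1.2, while 67NR stood at 446 ± 12.7 and 66cl4 at 147 ± 18.6 (SD, n = 2). Its log2 fold change was -3.34 (SE 0.08, adjusted p = 1.39e-10, edgeR). Eda2r, a death-domain receptor, had 5 counts against 16823, a ratio of 3940 in favour of 66cl4/67NR (exact 95% binomial interval 1690 to 12100). It passed the filter on low counts only through 66cl4 and 67NR, so its place in that count and median is no support. Trp53 itself, singled out after its values were seen, had a log2 fold change of -2.29 (SE 0.12, adjusted p = 4.29e-08, edgeR).

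**Figure D4:**
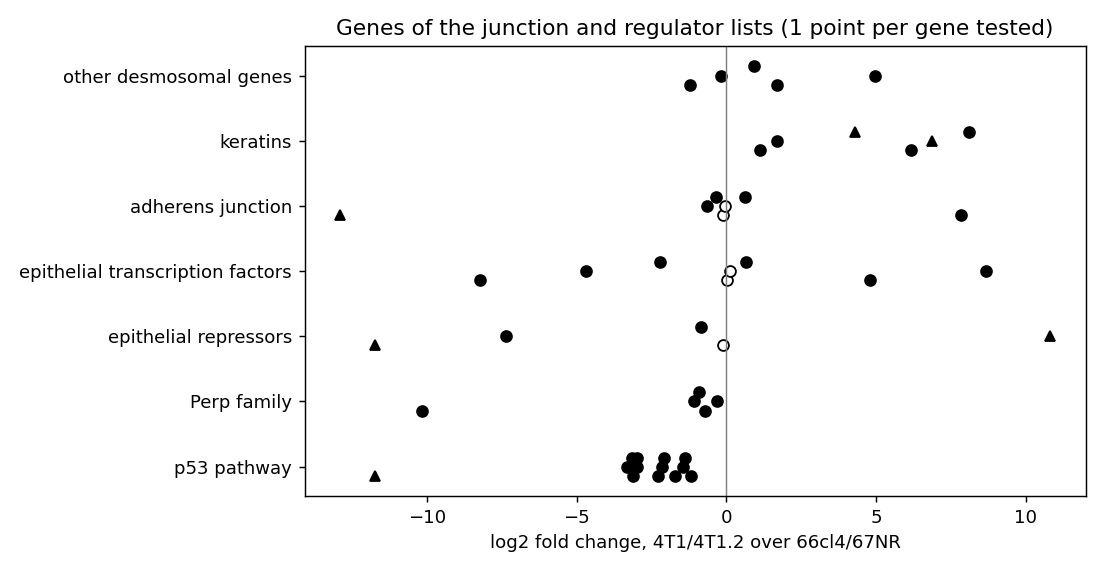
Log2 fold change of 4T1/4T1.2 over 66cl4/67NR for each tested gene of 7 lists, with 1 point per gene, filled where the adjusted p is under 0.05. Triangles mark genes with at most 3 counts in every library of a group, whose position depends on the prior count. The keratins all lie above 0, and the Perp family and p53 pathway all lie below 0. In each of these lists, at least 1 gene passed the filter on low counts only through the group where it is high.

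The lower level of Perp in 4T1.2 than in 4T1 was shared by the tested epithelial markers, but not by all epithelial genes of the other lists. Of the 6 keratins tested, 4 were called lower in 4T1.2 and 2 were not called. Of the 8 epithelial transcription factors tested, 2 were called lower and 6 were not called. All 8 epithelial markers that were tested were called lower in 4T1.2, with log2 fold changes from -2.35 for Cldn7 to -0.52 for Krt8 and adjusted p-values of up to 0.0252 (edgeR), where 9.9% of all genes tested were called lower. Cdh1 was at -1.76 (SE 0.14, adjusted p = 4.4e-05, edgeR). Epcam was at -1.61 (SE 0.15, adjusted p = 0.000162, edgeR), a value close to that of Perp. Jup and Dsp were not called in this comparison, and whether their change differs from that of Perp was not tested.

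The genes whose pattern lay nearest to each member were found by the root mean square difference of centred log2 CPM over the 8 libraries, as a description. A prior count of 2 was added before taking logs. Nearest to Perp were Epcam (0.266), Edil3 (0.331) and Ly9 (0.388), all on other chromosomes. Epcam was at 42.8 ± 5.46 CPM in 4T1 and 13.99 ± 0.392 in 4T1.2 (SD, n = 2). Nearest to Jup were Cfap74 (0.175), Tbkbp1 (0.255) and Mapk11 (0.258), and nearest to Dsp were Eng (0.205), Plxnb1 (0.236) and Dclk1 (0.251). Pkp3 lay nearest to Ndufb9 (0.129), Dyrk1b (0.134) and Lurap1 (0.171). Pkp2 lay nearest to S100a16 (0.252), Cbr2 (0.275) and Vsir (0.341), and Pkp1 to Col5a3 (0.309), Trp53i11 (0.448) and Tmprss5 (0.493). No member was among the 3 nearest genes of another. Between members, the smallest distances were 0.737 for Dsp and Pkp3 and 0.867 for Jup and Perp, and the largest was 5.12 for Pkp1 and Perp. Distances of Dsp, Pkp1 and Perp, which had few or no counts in some lines, depend on the prior count. So do those of Jup to Cfap74 and Mapk11, which had at most 3 counts in each library of 66cl4 and 67NR. Those of Perp also rest on the contrast it was chosen for.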

How the data were processed

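The authors deposited whole-number counts per Entrez gene for 8 libraries, without normalization, with a gene length for each row. Reads were aligned to mm10 with Rsubread and counted with featureCounts on NCBI annotation, as the study's methods state for its other RNA-seq and call similar for these lines. The strand setting is not given in the sources used here. The 8 single-library tables held the same counts as the series table, and 0 columns were left unmapped.

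Of 27179 identifiers, 25275 (93.0%) had an entry in a RefSeq gene table of GRCm38.p6. After filterByExpr (15269 genes), predicted, ribosomal and unlisted genes were removed after the study's methods, which left 13913 genes, 6 of them members. Counts were scaled by TMM and tested with edgeR 4.0.16 (R 4.3.3, limma 3.58.1) by the quasi-likelihood F-test in its legacy form, on a mean for each line over all libraries and with Benjamini-Hochberg adjustment. Standard errors derive from the F statistic and are approximate. With 2 biological replicates a line, p-values measure the spread between these samples. Replicates differed by more than sampling noise (chi-square per degree of freedom 10.3 to 83.3). The fit was tested on simulated counts.

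The members, gene lists, lists of markers, rules and alternatives were chosen with earlier results of these data known. Named genes were the members, called genes of a list (all if up to 5, otherwise the 2 largest changes in each direction), the 3 nearest genes in pattern and the 3 annotated genes on each side of Perp. The values of 1 gene that this rule names are not reported here. Alternatives were DESeq2 size factors, no filter on low counts, a minimum of 10 counts per library, keeping all annotation classes, DESeq2 1.42.0, limma-voom, a replicate term and leaving out each library. Figures used matplotlib 3.10.9. Bounds and intervals cover counting error only.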

Additional observations from a re-analysis of the deposited data

How the results depend on the processing

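The 4 calls among desmosome genes in the pooled comparison lay between 3 and 4 over the alternatives, the bound for Perp between 413 and 489, and the 3 calls between 4T1.2 and 4T1 between 2 and 3. Requiring at least 10 counts in every library removed Dsp, Pkp1 and Perp from testing and left 1 call for 66cl4 against 67NR, 3 for 4T1.2 against 66cl4, 2 for 4T1.2 against 67NR and 3 for 4T1 against 67NR. Signs that turned were of differences that were not called. For Pkp1 the pooled value was -0.18 with limma-voom and lay between -0.74 and 1.42 with a library left out, and between 4T1.2 and 4T1 it lay between -0.30 and 2.17. Jup between 66cl4 and 67NR lay between -0.13 and 0.62, and Pkp2 between 4T1.2 and 67NR between -0.013 and 0.036. Pkp3 between 66cl4 and 67NR was -0.019 without a filter, -0.0098 with at least 10 counts, -0.017 with all annotation classes kept, -0.0017 with limma-voom and between -0.058 and 0.080 with a library left out. Pkp1 in 4T1 over 66cl4 was called without 4T1 replicate 2 (3.31, adjusted p = 0.024, edgeR). Without 67NR replicate 2, which leaves 0 counts of Dsp in that line, the log2 fold change of Dsp in 4T1.2 over 67NR rose from 6.04 to 9.21. The labels do not say what a replicate number marks. Across genes, the deviations of same-numbered libraries correlated by 0.681 for 4T1.2 and 4T1, 0.284 for 4T1 and 67NR and 0.17 for 4T1.2 and 67NR, but by -0.0775 to -0.319 for each pair with 66cl4, so the numbers were not taken as a pairing over all lines. With a replicate block the counts of calls were 4 in the pooled comparison, 3 for 4T1.2 against 4T1 and 2 for 66cl4 against 67NR, and the call of Pkp1 in 4T1.2 over 66cl4 was lost (adjusted p = 0.0599, edgeR), while Perp in 4T1.2 over 4T1 stayed at -1.66 (adjusted p = 0.000114, edgeR). Depth limits Dsg2, Dsc2, Pkp1, Dsp and Perp, whose counts were below 10 in most or all libraries of at least 2 lines.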
